A study of Mus musculus and synthetic construct with 3 samples.

Results

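The small heat shock protein genes Hspb1, Hspb6, Hspb7, Hspb8 and Cryab were followed in mouse abdominal aorta, 5 of the 32285 genes in a spatial count matrix, each taken by its symbol. They were picked with their levels in aneurysmal and control aortas, and in smooth muscle areas, already seen. Their differences between these groups are therefore given as a description, with fold changes and standard errors but no test.

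The study asked how gene expression is laid out in abdominal aortic aneurysm (AAA). The AAA group was 3 male Apoe-/- mice that had developed an aneurysm, out of 5 that received angiotensin II (AngII) from a minipump under the skin for 4 weeks. The control group was 3 male Apoe-/- mice out of 5 whose pumps held saline. All mice lacked Apoe, ate a normal diet and were 16 weeks old by the labels, so no aorta with intact Apoe was measured, and the AAA mice were those in which the drug had produced an aneurysm. The labels give AngII as 1000 ng/ml, whereas the study's methods state it as a rate per body weight and give a younger age at implantation. Suprarenal aortas were embedded as an AAA and control pair and cut at 10 μm, and each condition had 10 sections from its 3 mice, all on 1 imaging area.

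Small heat shock proteins bind partly unfolded proteins without using ATP and hold them until other chaperones refold them or they are degraded. They share an alpha-crystallin domain and assemble into dimers and larger oligomers. Muscle, including the smooth muscle of artery walls, is known for holding several of them, where they attach to actin and intermediate filaments and to Z-discs or dense bodies. Heat and other protein stress raise some of the family through heat shock factor, which binds inverted repeats of the letters GAA.

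Seq-Scope captures polyadenylated RNA on a surface where the position of each barcode has been read beforehand, and each unique molecular identifier (UMI) counted stands for 1 captured molecule. The 3 AAA mice had 963428, 431329 and 645375 exonic UMIs over their sections, and the 3 control mice had 147488, 104590 and 139907. All 7 genes used to mark smooth muscle (Acta2, Tagln, Myh11, Myl9, Cnn1, Tpm2 and Mylk) were detected, at a summed level of 10143 to 12447 counts per 1000000 exonic UMIs (CPM) in AAA mice and 15623 to 22029 CPM in control mice. The fibroblast markers summed to 11226 to 15298 CPM in AAA mice and 8746 to 9814 CPM in control mice, and the macrophage markers to 2662 to 3566 CPM in AAA mice and 1342 to 1817 CPM in control mice. Liver marker RNA stood at 16099 to 17372 CPM in AAA mice and 15946 to 20547 CPM in control mice, and the gaps between sections, which hold no aorta, still gave 13300 UMIs per mm2 against 64227 per mm2 in AAA sections and 52025 per mm2 in control sections. In the gaps the 7 smooth muscle genes summed to 13993 CPM and the fibroblast markers to 11876 CPM. RNA of wall cell types was thus also captured outside the section outlines, and its part in the section levels was not tested. Areas are those of the rectangles set around sections and gaps, which can include space without tissue. No level given here has had the RNA of the gaps subtracted.

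The start sites of the members are shown because heat shock factor is known to raise some of this family under protein stress. RefSeq windows on GRCm38.p6, from 250 bases before to 50 bases after the annotated start, were matched for 4 of the 5 members. They lie at chr5:135887669-135887968 (plus strand) for Hspb1, chr7:30553051-30553350 (plus strand) for a start of Hspb6, chr5:116422815-116423114 (minus strand) for Hspb8 and chr4:141420529-141420828 (plus strand) for Hspb7. Each is written 5′ to 3′ along the gene, and capitals mark GAANNTTC, the inverted pair of GAA repeats.
Hspb1: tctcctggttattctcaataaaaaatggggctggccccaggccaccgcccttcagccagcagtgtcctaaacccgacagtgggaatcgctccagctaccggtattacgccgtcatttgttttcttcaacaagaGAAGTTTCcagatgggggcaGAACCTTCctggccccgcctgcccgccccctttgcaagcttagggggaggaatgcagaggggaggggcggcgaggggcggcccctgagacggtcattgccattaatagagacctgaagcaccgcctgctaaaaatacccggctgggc
Hspb6: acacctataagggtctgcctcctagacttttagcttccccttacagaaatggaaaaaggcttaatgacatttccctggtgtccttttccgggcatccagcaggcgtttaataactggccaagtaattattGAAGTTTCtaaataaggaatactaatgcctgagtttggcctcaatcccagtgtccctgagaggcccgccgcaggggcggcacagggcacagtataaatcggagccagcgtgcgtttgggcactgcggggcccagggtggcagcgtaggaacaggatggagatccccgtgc
Hspb8: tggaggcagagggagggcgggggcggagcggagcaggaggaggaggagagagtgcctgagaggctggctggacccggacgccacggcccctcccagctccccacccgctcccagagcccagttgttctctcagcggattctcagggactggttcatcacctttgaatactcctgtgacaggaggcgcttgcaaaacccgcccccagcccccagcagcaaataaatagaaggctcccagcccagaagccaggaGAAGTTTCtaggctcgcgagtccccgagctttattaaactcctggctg
Hspb7: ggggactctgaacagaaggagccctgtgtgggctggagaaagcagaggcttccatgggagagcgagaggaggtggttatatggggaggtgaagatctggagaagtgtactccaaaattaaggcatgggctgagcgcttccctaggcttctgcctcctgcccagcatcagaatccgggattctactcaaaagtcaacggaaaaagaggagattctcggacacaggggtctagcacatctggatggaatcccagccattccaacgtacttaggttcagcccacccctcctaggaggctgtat

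The Hspb1 window held GAAGTTTC beginning 117 bases before the annotated start and GAACCTTC beginning 97 bases before it. The Hspb6 window held GAAGTTTC 120 bases before the start, and a second RefSeq window of Hspb6 held none. In Hspb8 the same letters GAAGTTTC began 2 bases after the start base, and Hspb7 held no match. Among all 32851 mouse windows of this length, 7.86% held GAANNTTC, which reads the same on both strands, and 8.52% held the other inverted pair, TTCNNGAA, which none of the member windows did. The exact letters GAAGTTTC, noted only after these matches were seen, occurred on either strand in 1.21% of windows. No member window held a CArG box, the serum response factor motif of many contractile genes, which 1.63% of windows held. These letter matches describe the sequence only, and no measurement here bears on binding.

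Hspb1, Hspb6 and Hspb7 had lower CPM in AAA than in control aortas, while Hspb8 and Cryab differed little. Over all section barcodes, 3 of the 5 genes were lower and 0 higher past an edgeR adjusted p of 0.05, a threshold that 2.6% of the 5895 genes tested passed, 1.39% as lower and 1.2% as higher. Because this contrast chose the genes, nothing is read from that count, which Hspb6 left in 8 alternatives and Hspb7 in 5. The median log2 fold change, AAA over control, was −0.98 over the 5 members and −0.01 over all genes tested. In these bulk sums, fewer smooth muscle cells and less RNA per cell cannot be told apart.

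Hspb1, the mouse counterpart of human HSP27, binds actin filaments and is a target of the kinase MAPKAPK2. It was counted at 360, 478 and 375 CPM in the 3 AAA mice, from 347, 206 and 242 UMIs, against 1166, 612 and 965 CPM in the 3 control mice, from 172, 64 and 135 UMIs. Every AAA mouse lay below every control mouse, although control mouse 2 came much nearer to the AAA range than the other two. The means were 404 ± 63.9 CPM in AAA mice and 914 ± 281 CPM in control mice (SD, n = 3 each), and the fitted log2 fold change was −1.22 (SE 0.15). Leaving out each mouse in turn moved that value between −0.99 and −1.41. The 10 AAA sections ran at 326 to 518 CPM and the 10 control sections at 568 to 1312 CPM. These are repeat cuts of the same mice, so nothing is read from their separation.

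Hspb6, known as HSP20, is phosphorylated by cyclic nucleotide-dependent kinases when smooth muscle relaxes and then binds 14-3-3 proteins. It had 39.4, 32.5 and 37.2 CPM in AAA mice and 94.9, 57.4 and 114 CPM in control mice, on only 76 UMIs in all AAA mice and 36 in all control mice. The groups did not overlap, with means of 36.4 ± 3.56 CPM in AAA mice and 88.9 ± 29.0 CPM in control mice (SD, n = 3 each). The share of all tested genes whose mice separate in this way was not counted. Nothing is read from the separation of Hspb6, or from that of Hspb1 above. The fitted log2 fold change of Hspb6 was −1.30 (SE 0.33). Leaving out each mouse in turn moved that value between −1.06, without control mouse 3, and −1.48, without control mouse 2.

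Hspb7, a small heat shock protein of heart and vessel that binds filamin C, had 78.9, 81.1 and 107 CPM in AAA mice and 183, 105 and 222 CPM in control mice. Control mouse 2, at 105 CPM from 11 UMIs, lay within the AAA range, so the groups overlapped. The means were 89.0 ± 15.6 CPM in AAA mice and 170 ± 59.3 CPM in control mice (SD, n = 3 each), with a log2 fold change of −0.98 (SE 0.24). Leaving out each mouse in turn moved that value between −0.73, without control mouse 3, and −1.18, without control mouse 2.

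Hspb8, or HSP22, works with the co-chaperone Bag3 to send damaged filament proteins to autophagy. Its levels were 91.3, 139 and 124 CPM in AAA mice and 136, 95.6 and 114 CPM in control mice, which interleaved. The fitted log2 fold change was −0.04 (SE 0.26), which took either sign across the alternatives. Cryab, which encodes alphaB-crystallin, a lens protein that also guards desmin filaments in muscle, had 199, 197 and 200 CPM in AAA mice against 217, 201 and 264 CPM in control mice. The AAA mice lay below the control mice by less than 1 CPM at the nearest pair, and the log2 fold change was −0.21 (SE 0.19).

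**Figure D1:**
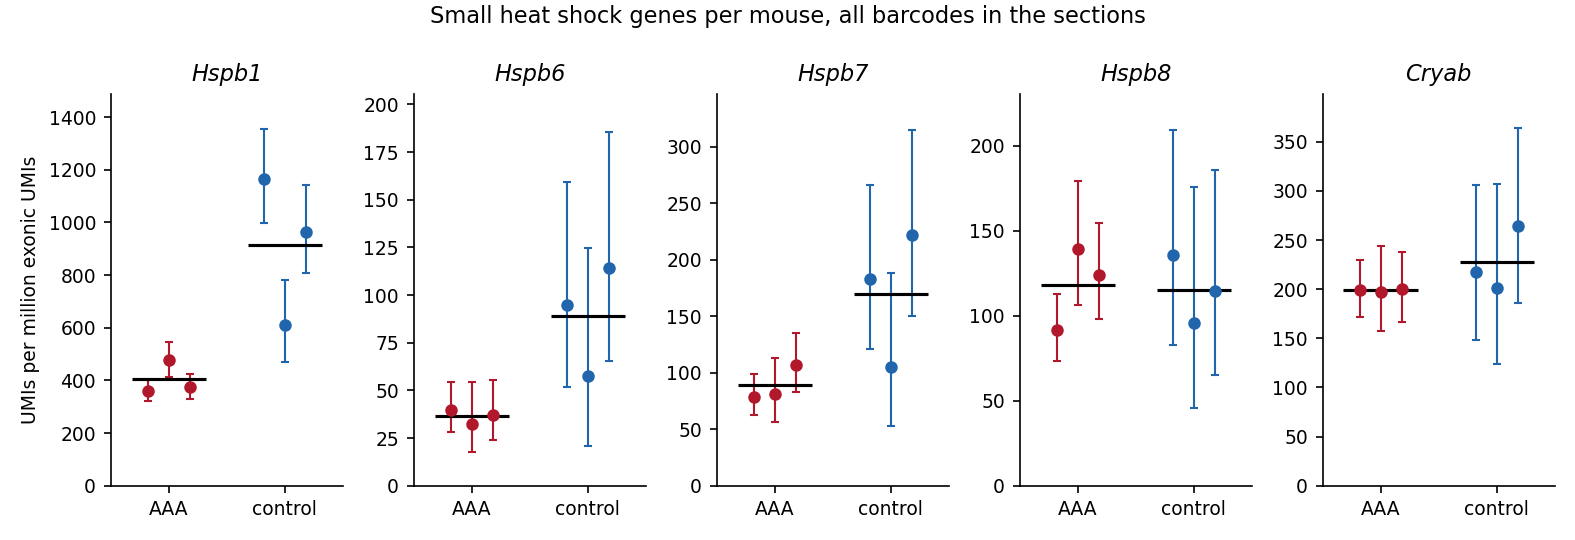
Level of each gene in CPM of exonic UMIs, with 1 point per mouse, AAA mice (red) left of control mice (blue). Vertical bars are exact Poisson 95% intervals of each mouse, which cover counting error only and are not SDs between mice. Horizontal lines are the group means. Hspb1 and Hspb6 have means of 404 and 36.4 CPM in AAA mice against 914 and 88.9 CPM in control mice, whereas Hspb8 points interleave.

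Cryab carries an added uncertainty. On GRCm38 it lies at chr9:50751325-50756636 on the plus strand and overlaps Hspb2, at chr9:50751078-50752354 on the minus strand, by 1030 bases, and the sources used here do not state whether reads were counted by strand. Hspb2, which binds the myotonic dystrophy kinase, had 77.8, 55.6 and 83.7 CPM in AAA mice and 102, 47.8 and 35.7 CPM in control mice, with overlapping groups and a log2 fold change of 0.22 (SE 0.33). Of the other relatives in the matrix, Hspb3 had 1 UMI in the sections and Odf1 had 2, while Hspb9 and the lens gene Cryaa had 0 UMIs over all barcodes.

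The 7 smooth muscle genes summed to 10635, 10143 and 12447 CPM in AAA mice and 20090, 15623 and 22029 CPM in control mice, with no overlap. Set against that sum, the 5 members divided differently. Per 1000 smooth muscle gene UMIs, Hspb1 counted 33.9, 47.1 and 30.1 UMIs in AAA mice and 58.0, 39.2 and 43.8 in control mice, which overlapped. Hspb6, at 3.30 ± 0.371 in AAA mice and 4.53 ± 0.778 in control mice, and Hspb7, at 8.0 ± 0.586 in AAA mice and 8.63 ± 1.71 in control mice (SD, n = 3 each), overlapped as well.

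Hspb8 and Cryab stood higher on this scale in AAA. The divisor itself was lower in AAA, at a mean of 11075 CPM against 19247 CPM in control mice. A gene with equal CPM in both groups therefore stands higher in AAA on this scale. Hspb8 was nearly equal in CPM, at means of 118 in AAA mice and 115 in control mice. Hspb8 gave 8.59, 13.7 and 9.96 UMIs per 1000 smooth muscle gene UMIs in AAA mice against 6.75, 6.12 and 5.19 in control mice. Cryab gave 18.7, 19.4 and 16.1 in AAA mice against 10.8, 12.9 and 12.01 in control mice. Neither gene's groups overlapped, and the log2 ratios of the means were 0.84 for Hspb8 and 0.60 for Cryab, against −0.34 for Hspb1, −0.46 for Hspb6 and −0.11 for Hspb7. Hspb2 did not overlap either, at 6.51 ± 0.935 in AAA mice and 3.25 ± 1.73 in control mice (SD, n = 3 each). The divisor's own groups did not overlap, and the share of all genes that separate on this scale was not counted. Nothing is read from these separations. The 5 genes together stood at 77.2 ± 12.6 in AAA mice and 78.1 ± 10.6 in control mice (SD, n = 3 each). The numerator can include heat shock RNA of cells other than smooth muscle, and the fibroblast and macrophage markers were higher in the same AAA mice. Their part in these ratios was not tested.

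**Figure D2:**
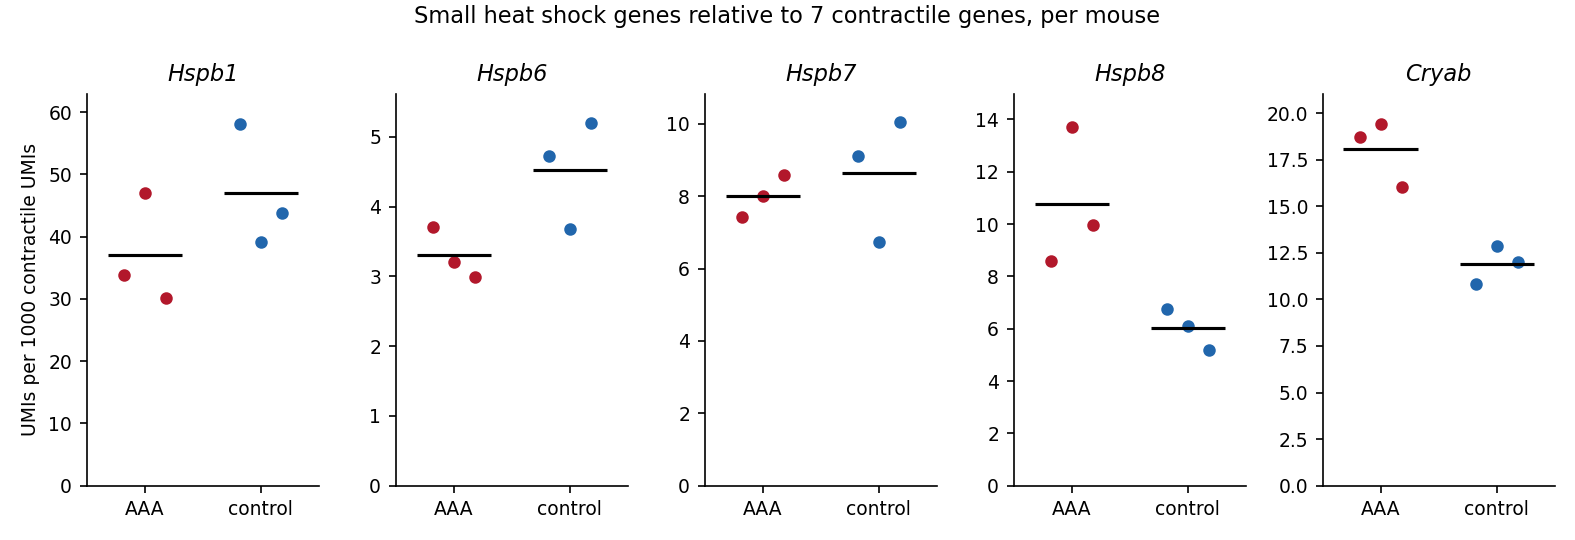
UMIs of each gene per 1000 UMIs of the 7 smooth muscle genes, with 1 point per mouse, AAA mice (red) left of control mice (blue). Horizontal lines are the means. Hspb1, Hspb6 and Hspb7 overlap between groups on this scale. Hspb8 and Cryab lie higher in all 3 AAA mice, at means of 10.8 and 18.1 in AAA mice against 6.02 and 11.9 in control mice. The summed smooth muscle genes were themselves lower in AAA mice.

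Levels were then followed section by section. Sections of a mouse are not independent, so the correlations below describe 20 points from 6 mice that share depth and background. With the summed smooth muscle genes, on log2(CPM + 10), Pearson's r over all 20 sections was 0.886 for Hspb1, 0.777 for Hspb7 and 0.631 for Hspb6, but 0.271 for Cryab and −0.213 for Hspb8. The between-condition difference enters these values. Within the 10 AAA sections alone, Hspb7 kept r = 0.813 while Hspb1 had r = −0.349, and within the 10 control sections Hspb1 had r = 0.740 and Hspb7 had r = 0.459.

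Single sections were noisy for the rarer genes. Hspb6 ranged over 23.7 to 52.3 CPM in AAA sections and 0 to 164 CPM in control sections. Hspb7 ranged over 64.6 to 112 CPM in AAA sections and 77.5 to 314 CPM in control sections. Hspb8 spanned 68.9 to 157 CPM in AAA sections and 40.7 to 175 CPM in control sections, and Cryab spanned 149 to 252 CPM in AAA sections and 105 to 407 CPM in control sections. The wider control ranges go with the smaller UMI totals of those sections.

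**Figure D3:**
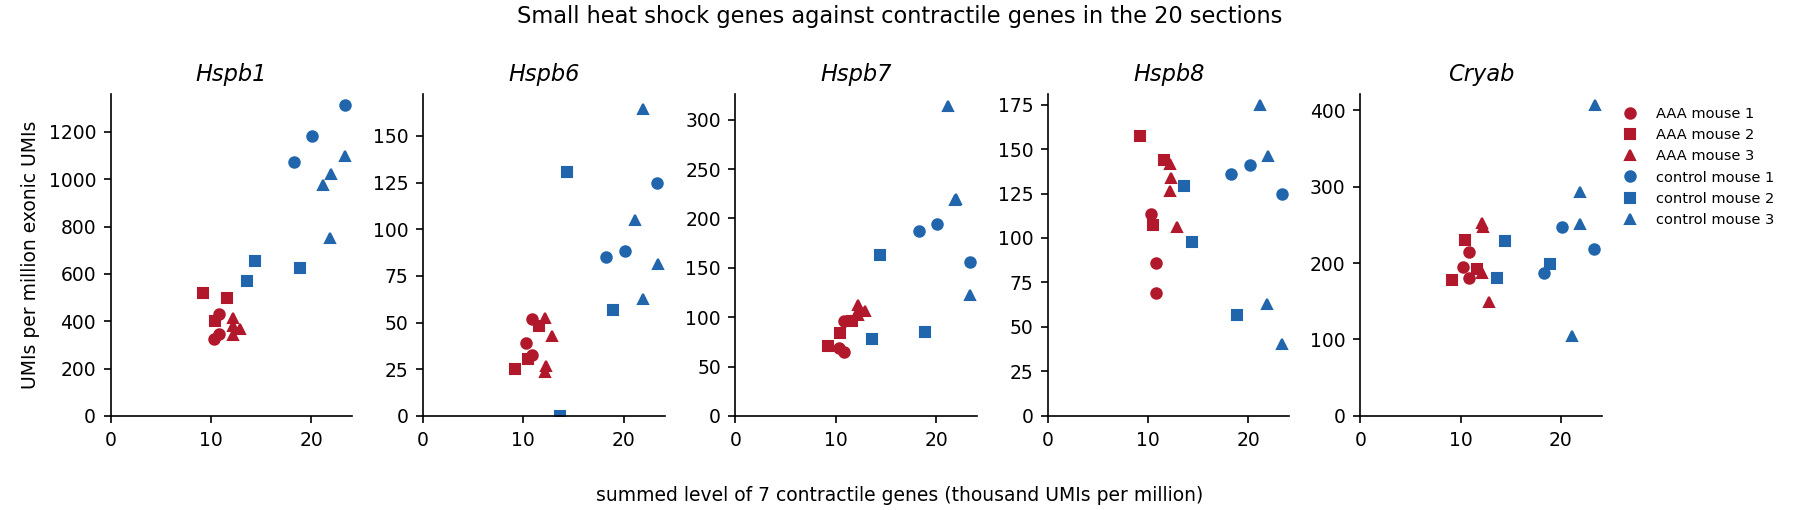
Level of each gene (CPM) against that of the 7 summed smooth muscle genes, with 1 point per section, 10 AAA sections in red and 10 control sections in blue. Hspb1 climbs with the smooth muscle sum over all sections (r = 0.886), and Hspb8 shows no such climb (r = −0.213). These r values were calculated on log2(CPM + 10), not on the plotted CPM.

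The genes whose section profiles were most like each member were picked by the highest Pearson r over the 20 sections among 5895 tested genes, as a description. For Hspb1 they were the myosin light chain gene Myl9 (r = 0.907), the smooth muscle actin gene Acta2 (r = 0.880) and Synpo2 (r = 0.877), which encodes an actin-bundling partner of Bag3. Hspb6 lay nearest to the smooth muscle myosin gene Myh11 (r = 0.855), Kank1 (r = 0.820) and Fibin (r = 0.807). Hspb7 lay nearest to the pericyte and mural cell gene Rgs5 (r = 0.869), Cpe (r = 0.825) and Acta2 (r = 0.821). Hspb8 was nearest to Fam114a1 (r = 0.814), Ifngr2 (r = 0.781) and Atp6v1b2 (r = 0.781), and Cryab to the focal adhesion gene Zyx (r = 0.815), the receptor gene Tgfbr1 (r = 0.804) and Ddi2 (r = 0.771). Among the members themselves, Hspb1 with Hspb7 had r = 0.722, Hspb6 with Hspb7 had r = 0.691 and Hspb1 with Hspb6 had r = 0.623, while Hspb8 with Cryab had r = −0.476. The difference between conditions, by which the genes were chosen, enters these values. Within the 10 AAA sections, Hspb1 with Hspb7 had r = −0.264, Hspb6 with Hspb7 −0.0525 and Hspb1 with Hspb6 −0.136, and Hspb1 had r = 0.0596 with Myl9 and −0.425 with Acta2. Within the 10 control sections, Hspb1 with Hspb7 had r = 0.522, Hspb6 with Hspb7 0.664 and Hspb1 with Hspb6 0.610, and Hspb1 had r = 0.736 with Myl9 and 0.753 with Acta2. Hspb7 with Acta2 had r = 0.859 within AAA sections and 0.607 within control sections. Within AAA sections Hspb8 had r = 0.738 with Fam114a1, −0.0399 with Ifngr2 and 0.426 with Atp6v1b2, against 0.840, 0.914 and 0.855 within control sections. Those 3 genes had only 90, 202 and 150 UMIs. Cryab had r = 0.157 with Zyx, 0.490 with Tgfbr1 and 0.469 with Ddi2 within AAA sections, against 0.961, 0.873 and 0.923 within control sections.

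To look within the wall, barcodes were grouped into hexagons with sides of 12 μm, and those with 50 or more genes were kept. A hexagon with 3 or more UMIs of the 7 smooth muscle genes was called smooth muscle. Such a hexagon is a small area that can hold parts of several cells, and the class is a range of a count and not a cell type. It took 912 of 10178 AAA hexagons (8.96%) and 437 of 1449 control hexagons (30.2%), with 502 of the AAA hexagons and 174 of the control hexagons at exactly 3 UMIs and a further 1325 AAA and 297 control hexagons just below, at 2 UMIs.

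In smooth muscle hexagons Hspb1 was again lower in AAA when the mice were pooled, but not in every mouse. It had 42 UMIs, or 421 CPM, in AAA hexagons (exact Poisson 95% interval 303 to 569, counting error only) and 68 UMIs, or 1630 CPM, in control hexagons (1266 to 2066). By mouse the levels were 495, 520 and 234 CPM in AAA mice against 1810, 519 and 2022 CPM in control mice. Control mouse 2, with 4 UMIs, lay at the AAA level, so the groups overlapped. No member passed the low-count filter for the fit across these hexagons, in which 258 genes were tested and 3.49% passed the threshold, 1.16% as higher and 2.33% as lower. Where an alternative setting let Hspb1 in, which 9 of 16 did, its log2 fold change lay between −1.37 and −2.24.

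The other members gave too few UMIs in smooth muscle hexagons for more than a listing. Cryab had 27 UMIs, or 271 CPM, in AAA hexagons (178 to 394) and 8 UMIs, or 192 CPM, in control hexagons (82.8 to 378), with overlapping intervals. Hspb7 had 16 UMIs (160 CPM) in AAA hexagons and 9 UMIs (216 CPM) in control hexagons. Hspb8 had 10 UMIs (100 CPM) in AAA hexagons and 4 UMIs (95.9 CPM) in control hexagons, and Hspb6 had 1 UMI (10.0 CPM) in AAA hexagons and 5 UMIs (120 CPM) in control hexagons. These differences were not tested.

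Hspb1 RNA was not confined to smooth muscle hexagons. In the remaining hexagons it stood at 304, 467 and 358 CPM in AAA mice and at 1114, 496 and 791 CPM in control mice. The ratio of smooth muscle to other hexagons, pooled over mice, was 1.20 in AAA mice and 1.90 in control mice, and the smooth muscle hexagons were higher in 2 of 3 AAA mice and in 3 of 3 control mice. In the fit across 500 genes with the mouse as a block, where 11.8% passed the threshold, 8.2% as higher and 3.6% as lower, Hspb1 had a log2 fold change of 0.55 (SE 0.20), smooth muscle over other hexagons. It was the 1 member tested and was not among those genes, which it joined in 3 alternatives, and nothing is read from that, because the genes were picked with their levels in smooth muscle areas seen. Leaving out each mouse in turn moved the value between 0.41 and 0.72. Its change of that ratio between AAA and control, on the log2 scale, was −0.59 (SE 0.41).

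The share of each gene's UMIs found in smooth muscle hexagons was set against that of all RNA. Smooth muscle hexagons held 10.9% of all UMIs in AAA hexagons and 35.1% in control hexagons. For Hspb1 the shares were 12.8% in AAA and 50.7% in control. For Hspb7 they were 22.5% in AAA and 40.9% in control. Its smooth muscle level was higher in 3 of 3 AAA mice and in 2 of 3 control mice. In AAA mouse 2 that rested on 1 UMI, at 65.0 CPM against 60.7 CPM in other hexagons. For Cryab the shares were 15.2% in AAA and 30.8% in control, above the share of all UMIs in AAA and below it in control. For Hspb8 they were 10.3% in AAA and 33.3% in control, and for Hspb6, on 1 smooth muscle UMI in AAA and 5 in control, 4.17% in AAA and 55.6% in control.

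Hspb1 was also followed over the number of smooth muscle UMIs in a hexagon. With 0, 1, 2, 3 to 4, and 5 or more such UMIs, its pooled level was 366, 324, 352, 395 and 502 CPM in AAA hexagons, from 148, 91, 47, 30 and 12 UMIs. In control hexagons the same steps gave 654, 824, 1139, 1329 and 2107 CPM, from 18, 22, 26, 34 and 34 UMIs. The control level lay above the AAA level at each step. For Cryab the AAA steps were 153, 214, 217, 264 and 293 CPM and the control steps 254, 112, 351, 195 and 186 CPM, with no single order in control. Differences between the steps were not tested.

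**Figure D4:**
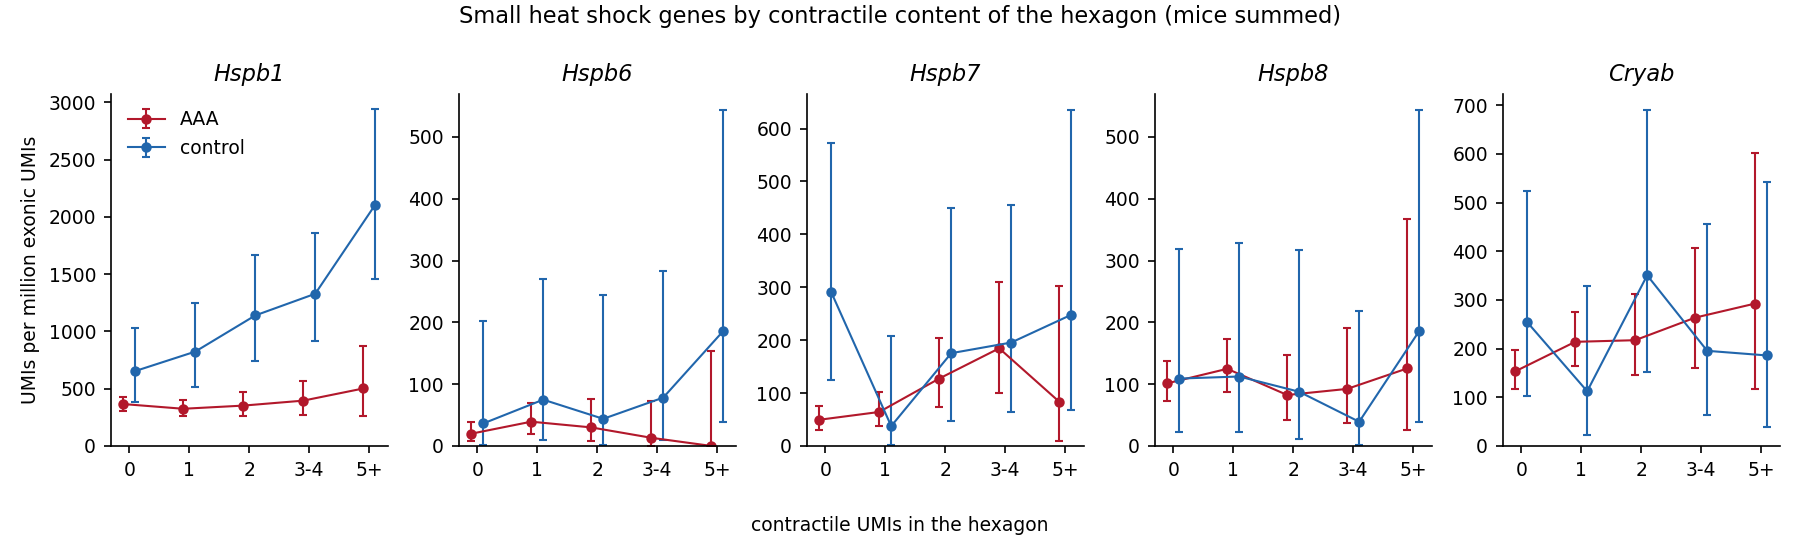
Pooled level of each gene (CPM) in hexagons with 0, 1, 2, 3 to 4, and 5 or more UMIs of the smooth muscle genes. AAA hexagons are red and control hexagons blue, with exact Poisson 95% intervals that cover counting error only. The Hspb1 points lie between 324 and 502 CPM over the AAA steps and between 654 and 2107 CPM over the control steps.

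Hexagons outside the class that carried 2 or more UMIs of another cell type's markers also held the members. In AAA tissue, Hspb1 stood at 320 CPM in 3127 fibroblast-marker hexagons, 291 CPM in 451 macrophage-marker hexagons and 297 CPM in 829 adipocyte-marker hexagons. Cryab stood at 202, 182 and 127 CPM in the same 3 sets and Hspb8 at 83.0, 90.9 and 74.3 CPM. In control tissue Hspb1 had 661 CPM in 129 fibroblast-marker hexagons, from 7 UMIs. Liver-marker hexagons, chosen in the same way, gave Hspb1 at 319 CPM in 3867 AAA hexagons and 1103 CPM in 386 control hexagons. Cryab stood at 148 CPM and Hspb8 at 97.0 CPM in those AAA hexagons. Marker UMIs in a hexagon therefore do not tell which cells held the RNA of the members. Striated muscle, which is rich in Cryab, Hspb6 and Hspb7, gave 2 such marker hexagons in AAA tissue and 0 in control tissue, and its 11 markers summed to 32.5 to 53.3 CPM in AAA mice and 6.78 to 95.6 CPM in control mice. On the same CPM scale the gaps between sections also held the members, with Hspb1 at 586 CPM, Cryab at 272, Hspb7 at 142, Hspb8 at 108 and Hspb6 at 51.7.

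Per area, however, the sections stood well above the gaps. The area is that of the rectangle set around each section or gap, so these are not amounts per area of tissue. Hspb1 counted 25.03 UMIs per mm2 in AAA sections and 49.2 in control sections, against 7.80 in the gaps. Cryab counted 12.8 UMIs per mm2 in AAA sections and 11.9 in control sections, against 3.61 in the gaps. Hspb8 counted 7.18 UMIs per mm2 in AAA sections and 6.11 in control sections, against 1.43 in the gaps. Hspb7, at 5.67 in AAA sections and 9.16 in control sections against 1.89 in the gaps, and Hspb6, at 2.39 in AAA sections and 4.78 in control sections against 0.688 in the gaps, showed the same order.

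Among hexagons outside the class, those within 45 μm of a smooth muscle hexagon were set against those farther away. In AAA mice Hspb1 had 320, 519 and 454 CPM near and 292, 420 and 286 CPM away, higher near in 3 of 3 mice, with a mean log2 ratio of 0.36 ± 0.27 (SD, n = 3). Cryab had 234, 164 and 227 CPM near and 158, 128 and 181 CPM away, a mean log2 ratio of 0.40 ± 0.12 (SD, n = 3). That direction for Cryab did not hold under other settings, at −0.048 with 25 or more genes a hexagon and −0.023, −1.19 and −0.87 with smooth muscle limits of 2 UMIs, 5 UMIs and 5% of UMIs, whereas Hspb1 lay between 0.16 and 0.81. Hspb7 and Hspb8 were higher near in 2 of 3 AAA mice and Hspb6 in 1 of 3. In control mice Hspb1 had 1049, 474 and 768 CPM near and 1369, 541 and 863 CPM away, higher near in 0 of 3 mice, but the away hexagons held only 10, 4 and 4 UMIs. These ratios were not tested.

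The wider chaperone network was compared in the same way. Of 37 other chaperones and co-chaperones listed, 33 were tested between AAA and control over all section barcodes, and edgeR with Benjamini-Hochberg adjustment called 0. DESeq2 called 0 of these chaperones as well. Of all 5895 genes tested, 675 had an unadjusted edgeR p under 0.05, and 324 of those were lower. Among the 33 chaperones there were 6, of which 5 were lower. Named after their values were seen, these 5 were the heat-inducible Hsp70 gene Hspa1a (−1.03), the Hsp90 co-chaperone gene Chordc1 (−0.78), the Hsp110 gene Hsph1 (−0.67), the inducible Hsp90 gene Hsp90aa1 (−0.61, edgeR adjusted p = 0.0643) and the mitochondrial Hsp60 gene Hspd1 (−0.51), as log2 fold changes. Without control mouse 2, edgeR called 2, Hsp90aa1 at −0.74 (adjusted p = 0.0373) and Hspa8 at −0.39 (adjusted p = 0.0343). Hsp90aa1 was also called with a replicate block and in hexagons with 50 or more, or 25 or more, genes. Their median log2 fold change was −0.10, against −0.01 over all genes tested. Hspa8, the constitutive Hsp70 that takes clients from small heat shock proteins, had 1381 ± 34.2 CPM in AAA mice and 1606 ± 373 CPM in control mice (SD, n = 3 each). Hspa5, the Hsp70 of the endoplasmic reticulum, had 940 ± 66.0 CPM in AAA mice and 839 ± 23.1 CPM in control mice (SD, n = 3 each). The log2 fold changes of the Hsp90 genes were −0.21 (SE 0.14) for the cytosolic Hsp90ab1 and 0.30 (SE 0.14) for the endoplasmic reticulum gene Hsp90b1, neither past the threshold.

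Among 22 partners, kinases and clients of the small heat shock proteins, 20 were tested. Past the edgeR threshold 2 were lower and 0 higher, where 1.39% of all genes tested were lower and 1.2% higher. The log2 fold change was negative for 13 of the 20, with a median of −0.07. Flna, the actin cross-linker filamin A, had 1405 ± 64.8 CPM in AAA mice and 2341 ± 208 CPM in control mice (SD, n = 3 each), a log2 fold change of −0.74 (SE 0.11, edgeR adjusted p = 8.53e-06). Synpo2 had 200 ± 4.60 CPM in AAA mice and 448 ± 91.3 CPM in control mice (SD, n = 3 each), a log2 fold change of −1.18 (SE 0.16, edgeR adjusted p = 2.04e-06). The intermediate filament gene Vim had −0.41 (SE 0.13, edgeR adjusted p = 0.0938), and the autophagy receptor gene Sqstm1 had 0.13 (SE 0.13). The 14-3-3 gene Ywhah had −0.08 (SE 0.13), a value that turned positive under several alternatives. In smooth muscle against other hexagons, Flna was higher by 0.75 on the log2 scale (SE 0.11, edgeR adjusted p = 8.24e-09). It did not pass without the low-count filter, at 0.32, or with smooth muscle limits of 5 UMIs, at 0.37, and 5% of UMIs, at 0.23.

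Of the 16 contractile genes listed, all tested, 12 were lower and 0 higher in AAA past the edgeR threshold. Among all genes tested 1.39% were lower and 1.2% higher. The log2 fold change was negative for 13 of the 16, with a median of −0.67. Acta2 had −0.87 (SE 0.11, edgeR adjusted p = 5.13e-07), and the largest falls were Smtn at −1.22, Myh11 at −1.16 and Lmod1, the actin nucleator of smooth muscle, at −1.14. Hspb6 at −1.30 lay below all 16 contractile genes, and Hspb1 at −1.22 was level with Smtn, the lowest of them. Hspb7 at −0.98 lay within their range, and Cryab at −0.21 and Hspb8 at −0.04 above all 12 genes called lower. Without control mouse 3, and with UMIs over whole genes, 7 of the 16 were called lower.

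**Figure D5:**
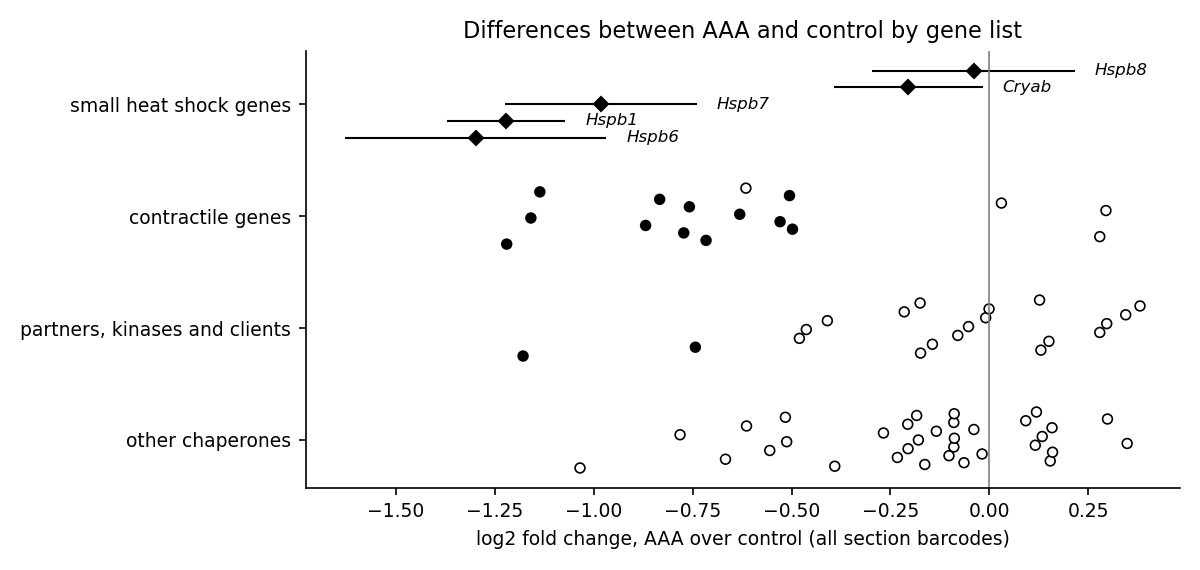
Log2 fold change of AAA over control over all section barcodes for the 5 members (diamonds, bars are the SE) and for each tested gene of the other lists (circles, filled where the edgeR adjusted p is under 0.05). Of the contractile genes 12 of 16 are filled and all of these are negative, and of the other chaperones 0 of 33 are filled.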

How the data were processed

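The deposited counts are whole UMI counts per gene and barcode that the authors made with STARsolo 2.7.5c on mm10, all sections in 1 matrix and not normalized. Exonic counts were used, with counts over whole genes as an alternative. Barcodes were assigned to 10 AAA and 10 control sections of 3 mice each by fitting their positions to the study's map of section outlines, since the matrix carries no section labels. Mitochondrial (mt-) and predicted (Gm) symbols, 8551 genes, were left out. UMIs were summed per mouse, with 104590 to 963428 UMIs a mouse, so that rare genes rest on few UMIs, and CPM values are per 1000000 remaining exonic UMIs. Mice are the replicates.

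After filterByExpr and TMM scaling, the sums entered the quasi-likelihood test of edgeR 4.0.16 in R 4.3.3, with p-values adjusted by Benjamini-Hochberg over all genes tested, and the comparison of hexagon classes had the mouse as a block. The code was tested on simulated data. Alternatives were DESeq2 1.42.0, library size scaling, no low-count filter, whole-gene counts, each mouse left out, a replicate block, narrower section outlines, other gene minimums and other smooth muscle limits. All members were named in each comparison, with genes of the lists that passed the test or were among a list's 4 most abundant, and the 3 genes most like each member. The members and lists were chosen with earlier results of these data known. The assignment of sections to mice and conditions rests on that map.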

Additional observations from a re-analysis of the deposited data

Results flagged for a closer look

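Hspb1 near smooth muscle hexagons moved in opposite directions in the conditions. The mean log2 ratio of near over away hexagons was 0.36 in AAA mice, with all 3 mice above 0, and −0.25 in control mice, with all 3 below 0. The difference between the conditions was not tested, and the control away hexagons held 4 to 10 Hspb1 UMIs a mouse.

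In parts of the array that no comparison used, 2 levels exceeded that of every control mouse. Hspb8 stood at 144 CPM in the lane area before the first section, from 91 UMIs (exact Poisson 95% interval 116 to 177), against 136 CPM in the highest control mouse. Cryab stood at 272 CPM in the gaps between sections, from 63 UMIs (209 to 347), against 264 CPM in the highest control mouse. Both intervals include the control value.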

How the results depend on the processing

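Between AAA and control over all section barcodes, 153 genes passed the threshold, 46.4% of them higher. DESeq2 gave 76 (36.8% higher), hexagons with 50 or more genes 96, with 75 or more 63, and leaving out each mouse 65 (without control mouse 3) to 161, with 77 without control mouse 1. Without the low-count filter 167 passed, 70.1% of them higher, and the median of all genes moved to 0.19. Whole-gene counts gave 136, 77.2% higher. The log2 fold change of Hspb1 lay between −0.99 and −1.94 in 15 alternatives. Hspb8 turned positive without the filter (0.12), with whole-gene counts (0.15), and in hexagons with 50 (0.091) or 25 or more genes (0.30, chosen after seeing the data), and ran from −0.14 to 0.17 with each mouse left out. Hspb2 was −0.25 in hexagons with 50 or more genes and ran from −0.058 to 0.88 with each mouse left out. Ywhah became 0.078 without the filter, 0.14 with whole-gene counts, 0.034 with 50 and 0.080 with 75 or more genes.

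In smooth muscle hexagons 9 genes passed, against 1 by DESeq2, 2 without the filter (median of all genes 0.71), 1 with 75 or more genes, 40, 1 and 0 with limits of 2 UMIs, 5 UMIs and 5% of UMIs, and 0 (without AAA mouse 1) to 15 (without control mouse 2), with 4 without AAA mouse 2 or control mouse 1. Whole-gene counts gave 13, of which 84.6% were higher against 33.3%. Between smooth muscle and other hexagons 59 passed (69.5% higher), against 27 by DESeq2 (88.9% higher), 36, 28 and 22 with the same 3 limits, 32 with no replicate block, and 36 (without AAA mouse 1) to 67 with a mouse left out. Scaling by library size gave 79, 43.0% higher (median −0.14), and no filter 67, 13.4% higher (median −0.61).

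The near over away log2 ratio of Hspb1 was 0.81, 0.74 and 0.73 with limits of 2 UMIs, 5 UMIs and 5%. That of Cryab was 0.66 with 75 and −0.048 with 25 or more genes, and −0.023, −1.19 and −0.87 with the same 3 limits. Hspb8 gave 1.02 with 75 or more genes and Hspb6 −0.80 with 2 UMIs. Same-numbered mice deviated together little (correlations 0.0259, 0.00380 and 0.0467), and a replicate block gave 180 calls over all section barcodes and 7 in smooth muscle hexagons. The causes of these changes were not tested, and depth limits Hspb6 most, with 36 UMIs in control mice.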

Other observations

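Away from the sections the members did not keep 1 proportion. In the other lane of the array, Hspb1 stood at 95.2 CPM, Cryab at 88.8, Hspb8 at 67.2, Hspb6 at 24.3 and Hspb7 at 9.81, whereas in the lane area before the first section Hspb1 stood at 370 CPM, Cryab at 162, Hspb8 at 144, Hspb6 at 61.9 and Hspb7 at 50.8. The tissue in these areas is not given in the sources used here.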
